A study of Mus musculus with 40 samples.

Results

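The posterior Hox genes of paralog groups 9 to 11 were examined in the RNA-sequencing counts. The 10 members, Hoxa9, Hoxb9, Hoxc9, Hoxd9, Hoxa10, Hoxc10, Hoxd10, Hoxa11, Hoxc11 and Hoxd11, were taken by symbol from the 26411 genes of the count files, and every member was found. Counts came from 24 whole embryos at E9.5 and from 16 samples of E14.5 fetal liver LSK cells, which are lineage marker-negative, SCA-1-positive and c-KIT-positive cells enriched for hematopoietic stem and progenitor cells by flow cytometry. Embryos of 6 genotypes were compared, with 4 per genotype. They were wild type (WT), Kat6a-/- (labelled Kat6a cfd/cfd), Kat6b-/- (labelled Kat6b dec/dec), Kat6aE/E (Kat6a G656E/G656E), Kat6bE/E (Kat6b G577E/G577E) and the double mutant Kat6aE/E;Kat6bE/E. The LSK samples covered WT, Kat6bE/E, Kat6aE/E and Kat6aE/E;Kat6bE/E, again with 4 each. The null alleles lack internal exons, and the E alleles exchange a glycine for glutamic acid in the acetyltransferase domain. All mutations were germline and homozygous, on a C57BL/6 background, so every cell of an embryo carried them, and a gene not named in a genotype was wild type. Embryos were matched by stage and sex and selected for similar external appearance, and the embryos were male.

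KAT6A and KAT6B are related histone lysine acetyltransferases that act on chromatin, and KAT6A is known for its role in setting the anterior expression limits of Hox genes. Hox genes lie in 4 clusters and are switched on in the order in which they lie, so that genes at the posterior end of a cluster are expressed last and furthest back along the body. Genes of group 9 pattern the thorax and flank, those of group 10 the lumbar region, where they hold back rib formation, and those of group 11 the sacral region, the kidney and the middle segment of the limb. HOXA9 and HOXA10 are in addition regulators of blood stem and progenitor cells, and HOXA9 is a driver of acute leukemia.

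The members lie in all 4 clusters (mm39, equal to GRCm39). On chromosome 6, Hoxa9 (chr6:52200080-52208069), Hoxa10 (chr6:52208164-52217834) and Hoxa11 (chr6:52219074-52222806) follow each other on the minus strand. Hoxb9 (chr11:96162150-96167421) is the sole member on chromosome 11. Chromosome 15 holds Hoxc11 (chr15:102862862-102866143), Hoxc10 (chr15:102875134-102880330) and Hoxc9 (chr15:102884117-102893531), and chromosome 2 holds Hoxd11 (chr2:74509901-74517360), Hoxd10 (chr2:74522230-74525449) and Hoxd9 (chr2:74528008-74530552), all on the plus strand. The canonical transcript has 3 exons for Hoxc9 and 2 for each other member.

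The homeobox codes for the DNA-binding domain of a Hox protein, and a stretch of it is shown for 8 members because their transcripts all carry it and short reads could be confused there. Each run holds 75 bases of the canonical transcript, and the capitals mark the 14 letters TGGTT, any base, CA, any base, AA, any 2 bases and G, searched on the transcript strand, in the part that codes for the DNA recognition helix.
Hoxb9: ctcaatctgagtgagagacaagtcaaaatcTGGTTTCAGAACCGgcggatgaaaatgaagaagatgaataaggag
Hoxc9: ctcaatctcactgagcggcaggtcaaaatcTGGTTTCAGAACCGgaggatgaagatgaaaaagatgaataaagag
Hoxa10: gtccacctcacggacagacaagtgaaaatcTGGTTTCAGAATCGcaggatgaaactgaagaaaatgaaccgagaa
Hoxc10: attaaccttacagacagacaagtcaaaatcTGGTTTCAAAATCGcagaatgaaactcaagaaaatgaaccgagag
Hoxd10: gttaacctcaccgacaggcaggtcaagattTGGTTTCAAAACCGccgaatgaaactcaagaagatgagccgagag
Hoxa11: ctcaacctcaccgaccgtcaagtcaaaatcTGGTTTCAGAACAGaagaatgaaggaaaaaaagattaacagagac
Hoxc11: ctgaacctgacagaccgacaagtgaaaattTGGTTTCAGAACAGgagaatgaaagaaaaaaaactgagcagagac
Hoxd11: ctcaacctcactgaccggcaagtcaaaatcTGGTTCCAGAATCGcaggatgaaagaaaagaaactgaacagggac
Within a paralog group these runs were identical at 59 to 66 of the 75 positions, and between groups at 53 to 61, over these 8 members. The letters occurred in 1.08% of 21593 canonical transcripts of protein-coding genes. No member shared a run of 66 bases with another member, the read length that the methods give.

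Reads could be shared with overlapping genes, since the library kit does not mark strand. For Hoxa11, 38.3% of the 66-base windows of its transcripts also lay in the antisense transcript Hoxa11os, so reads from these genes cannot be told apart there. The share was 16.8% for Hoxa10, with the antisense gene Gm52902, and 10.4% for Hoxc9, mostly with the antisense gene Gm36878. It was 7.04% for Hoxa9, 6.90% for Hoxd11, 4.89% for Hoxc10, with Hoxc5, and 2.24% for Hoxd10, while Hoxb9, Hoxd9 and Hoxc11 had none.

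The Hoxa9 locus also carries Mir196b, and miR-196 is known to target Hox transcripts. The mature sequences (RefSeq, GRCm38.p6) are shown with the seed, bases 2 to 8, in capitals, because miR-196a-5p and miR-196b-5p share it.
miR-196a-5p: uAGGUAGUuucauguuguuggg
miR-196b-5p: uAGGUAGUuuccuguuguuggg
Among the canonical transcripts of the 10 members, the letters ACTACCT that pair with the seed occurred once, in Hoxa9 at position 2419 of 3226.
Hoxa9 site: gcaaaaggaaagaaaACTACCTtttta
These letters are in 16.9% of canonical transcripts. Mature miRNAs were not measured in these libraries.

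Promoters were in the RefSeq table (GRCm38.p6) for 6 members, Hoxa9, Hoxd9, Hoxa10, Hoxd10, Hoxa11 and Hoxd11, with 8 starts. A pair of group 10 promoters is shown, since both genes move together in the results and only Hoxa10 holds the letters TTTAT, a core that posterior HOX and CDX proteins bind. The runs are the 250 bases before the start, in the direction of transcription, with TTTAT on either strand in capitals. The tabulated windows, which go on for 50 bases after the start, are chr6:52234890-52235189 on the minus strand for the second start of Hoxa10 and chr2:74691641-74691940 on the plus strand for Hoxd10.
Hoxa10: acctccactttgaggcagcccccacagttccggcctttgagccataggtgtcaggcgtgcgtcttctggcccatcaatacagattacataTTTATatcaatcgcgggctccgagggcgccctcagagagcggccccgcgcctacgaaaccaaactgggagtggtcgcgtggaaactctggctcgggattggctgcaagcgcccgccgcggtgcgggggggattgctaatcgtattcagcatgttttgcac
Hoxd10: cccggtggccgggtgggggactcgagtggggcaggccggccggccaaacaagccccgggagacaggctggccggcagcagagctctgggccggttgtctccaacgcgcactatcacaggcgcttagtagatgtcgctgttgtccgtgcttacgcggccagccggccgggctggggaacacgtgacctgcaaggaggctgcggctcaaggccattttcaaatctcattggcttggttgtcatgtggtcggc
Each of these windows holds 20 CpG dinucleotides, against a median of 6 over all 32851 tabulated promoters. Of the member starts not shown, the first of Hoxa10 had 7 and that of Hoxa9 had 3. Those of Hoxd9 and Hoxa11 had 13 each, and those of Hoxd11 had 2 and 20. The first start of Hoxa10 held TTTAT at 1 site and the first of Hoxd11 at 2. The letters TTTAT were in 37.3% of all promoters of that length.

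The embryo libraries held 8401990 to 23339359 counts and the LSK libraries 12270376 to 59216547. Levels are given as CPM, the count of a gene relative to the total count of its library, which was scaled by the trimmed mean of M-values, separately in embryos and LSK cells, and levels of different genes are compared only per kilobase of the length given in the files. Kat6a counts did not show the null allele, at 160 to 171 CPM in Kat6a-/- and 169 to 186 CPM in WT embryos, and Kat6b was higher in Kat6b-/- embryos, at 52.0 to 58.3 CPM against 38.2 to 42.6 CPM (log2 fold change 0.41 ± 0.07 SE, FDR = 0.00441). Counts were summed over whole genes, so the loss of some exons and the E alleles were not seen in them. Embryos came from 17 litters, and 3 litters held more than 1 genotype.

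Of the 24 embryo libraries, 5 stood apart by low expression of tail bud genes. They were WT replicates 1 and 4, Kat6aE/E replicates 2 and 4 and Kat6bE/E replicate 3. The summed level of 7 markers of the tail bud (T, Cdx2, Cdx4, Wnt3a, Nkx1-2, Tbx6 and Msgn1) was 14.9 to 23.7 CPM in these libraries and 47.6 to 121 CPM in the other 19. For 5 of the 7 markers (T, Cdx2, Cdx4, Tbx6 and Msgn1) every one of these libraries lay below every other, and Cdx4 and Msgn1 were at 0 in at least 1 of them, while Wnt3a and Nkx1-2 overlapped. The libraries were not spread evenly, as none was from a Kat6a-/-, Kat6b-/- or double mutant embryo. Comparisons of embryos between genotypes are therefore given with and without these 5 libraries, which were set apart after the data were seen and without use of the Hox genes.

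Hoxb9, which takes part in thoracic rib patterning, had the highest level of the members in WT embryos, at 39.8 ± 2.62 CPM per kilobase (mean ± SD, n = 4). It was followed by Hoxd9 at 10.4 ± 3.02, Hoxc10 at 9.34 ± 7.32, Hoxc9 at 6.76 ± 2.12, Hoxd10 at 4.93 ± 3.10, Hoxa10 at 4.59 ± 3.08, Hoxa11 at 3.29 ± 2.22, Hoxd11 at 3.20 ± 2.60, Hoxa9 at 2.87 ± 1.12 and Hoxc11 at 2.43 ± 2.22 CPM per kilobase. The range of Hoxb9 lay above that of Hoxd9, and every other pair of neighbours in this order overlapped. In WT replicates 2 and 3 alone the order changed, with Hoxc10 at 15.3 above Hoxd9 at 12.8 CPM per kilobase.

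**Figure D1:**
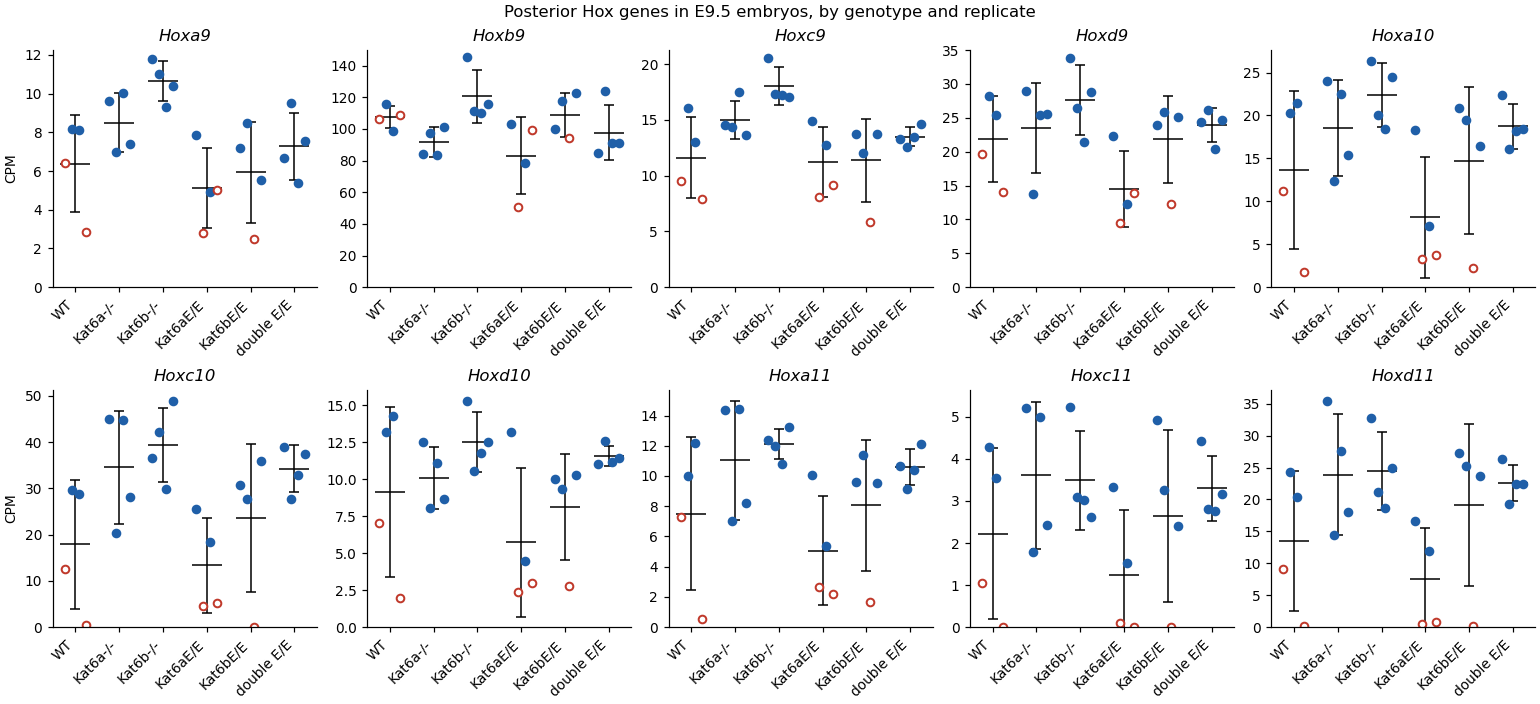
Level of each member in the 24 embryo libraries, by genotype, in CPM. Points are single libraries in replicate order, open red points are the 5 libraries low in tail bud genes, and bars give the mean ± SD (n = 4). Hoxc10 was 0 to 12.6 CPM in the open points and 18.3 to 48.8 CPM in the filled ones, while the points of Hoxb9 mixed.

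The 4 group 9 genes varied least between embryos. Hoxb9 was 106, 116, 98.9 and 109 CPM in the WT embryos, and its lowest value in any embryo was 50.7 CPM in Kat6aE/E replicate 2. WT embryos with few tail bud transcripts were not low in Hoxb9. Hoxa9 was 6.401, 8.15, 8.12 and 2.84 CPM in WT, 9.62, 6.97, 10.01 and 7.40 CPM in Kat6a-/- and 11.8, 11.02, 9.32 and 10.4 CPM in Kat6b-/- embryos. Every Kat6b-/- embryo was above every WT embryo, and the Kat6a-/- and WT ranges overlapped. Hoxd9 ranged from 13.99 to 28.3 CPM in WT, from 9.48 to 22.4 CPM in Kat6aE/E and from 21.4 to 33.8 CPM in Kat6b-/- embryos, and these ranges overlapped with WT.

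Hoxc9, a marker of the thoracic body axis, was 9.51, 16.04, 13.03 and 7.88 CPM in WT embryos and 20.5, 17.4, 17.2 and 17.0 CPM in Kat6b-/- embryos. All 4 Kat6b-/- values lay above all WT values, and the lowest WT values were those of replicates 1 and 4. In Kat6bE/E embryos Hoxc9 was 13.7, 12.1, 5.89 and 13.7 CPM, and in Kat6aE/E embryos it was 14.9, 8.10, 12.7 and 9.12 CPM. The low values in both genotypes were those of the libraries low in tail bud genes. Kat6a-/- embryos had 13.7 to 17.5 CPM and double mutants 12.6 to 14.6 CPM, both overlapping WT.

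The 3 group 10 genes, which specify lumbar identity, had far wider ranges. Hoxc10 was 12.6, 29.7, 28.8 and 0.429 CPM in WT embryos. It was 25.4, 4.61, 18.3 and 5.14 CPM in Kat6aE/E and 30.7, 27.7, 0 and 35.9 CPM in Kat6bE/E embryos. The 0 in Kat6bE/E replicate 3 allows up to 3 counts, or 0.218 CPM. Outside these genotypes Hoxc10 was not under 20.4 CPM, with 20.4 to 44.9 CPM in Kat6a-/-, 29.9 to 48.8 CPM in Kat6b-/- and at least 27.8 CPM in double mutant embryos. Hoxa10 was 11.2, 20.3, 21.4 and 1.72 CPM in WT, 18.4, 3.28, 7.16 and 3.73 CPM in Kat6aE/E, and 20.9, 19.4, 2.18 and 16.5 CPM in Kat6bE/E embryos. Kat6aE/E replicate 3 was low in Hoxa10 although its summed tail bud level, 69.6 CPM, was that of the other libraries. Hoxd10 behaved alike, at 7.01, 13.2, 14.3 and 1.98 CPM in WT and 13.2, 2.37, 4.48 and 2.96 CPM in Kat6aE/E embryos.

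The 3 group 11 genes, needed for the sacrum and kidney, had wide ranges too. Hoxd11 was 9.08, 24.3, 20.4 and 0.214 CPM in WT, 16.6, 0.560, 11.9 and 0.835 CPM in Kat6aE/E, and 27.3, 25.3, 0.145 and 23.6 CPM in Kat6bE/E embryos. It lay between 14.4 and 35.4 CPM in Kat6a-/-, between 18.7 and 32.8 CPM in Kat6b-/- and between 19.3 and 26.3 CPM in double mutant embryos. All 5 libraries low in tail bud genes were thus under all other 19 for Hoxd11. Hoxc11 was 1.04, 4.29, 3.55 and 0 CPM in WT embryos, and it was also 0 in Kat6aE/E replicate 4 and Kat6bE/E replicate 3. A count of 0 allows up to 0.161 CPM in WT replicate 4, by 3 counts per library. Hoxa11 was 7.27, 10.03, 12.2 and 0.536 CPM in WT embryos, and its lowest value elsewhere was 1.67 CPM, in Kat6bE/E replicate 3.

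Position in the clusters and the fall in these libraries went together. In the 4 libraries lowest in the tail bud markers, which are the 5 without WT replicate 1, the median log2 deviation of a paralog group from its 24-library median was between -0.95 and 0.22 for groups 1 to 8. It was -1.18 to -0.58 for group 9, -3.40 to -2.29 for group 10 and -6.43 to -4.59 for group 11. Groups 12 and 13 followed, at -5.30 to -4.47 and -5.76 to -3.73. WT replicate 1 was intermediate, at -0.27 for group 9, -0.71 for group 10 and -1.19 for group 11. In the other 19 libraries group 9 deviated by -0.48 to 0.56, group 10 by -1.26 to 0.51 and group 11 by -0.90 to 0.77. Deviations of genes at or near 0 depend on the 0.5 counts added before the logarithm.

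**Figure D2:**
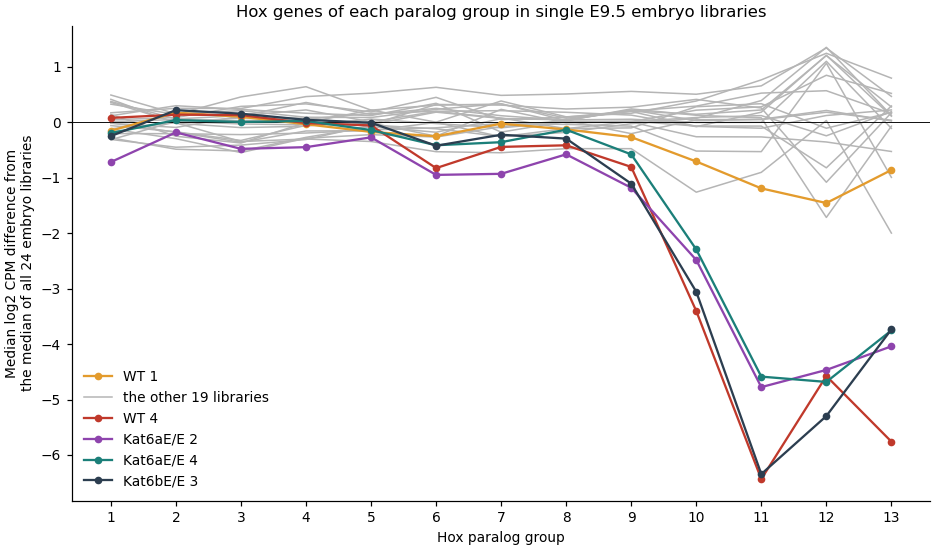
Median log2 deviation of the Hox genes of each paralog group from their 24-library median, by paralog group along the horizontal axis. Each embryo library has a line, the 5 libraries low in tail bud genes each in its own colour and the others in grey. Of the coloured lines, 4 lie below all others in groups 9 to 11. They reach -4.59 or lower at group 11, against -1.19 in WT replicate 1.

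Of the 10 members, 7 had all 4 of these libraries below all other 19, which was the case for 0.317% of the 14183 genes tested. They were Hoxc9 and the 6 genes of groups 10 and 11. The subset of 4 libraries was chosen after the data were seen. WT replicate 1, left out of it, had a summed tail bud level of 23.7 CPM, near the 23.4 CPM of WT replicate 4. With WT replicate 1 included, the low libraries still lay below all other 19 for Hoxc9, Hoxc10, Hoxc11 and Hoxd11. For Hoxa10, Hoxd10 and Hoxa11 they did not. By the 4 libraries alone, Hoxc11 had the lowest difference of medians of all genes and Hoxd11 the next. Hoxc10 was in place 9, Hoxa10 in place 19, Hoxa11 in place 21 and Hoxd10 in place 28. Hoxb9, with 50.7 to 109 CPM against 78.7 to 145 CPM, was in place 3575. The same libraries were low in the noncoding transcripts Hoxa11os (0 to 0.733 against 3.18 to 12.9 CPM) and Hotair (0 to 0.0643 against 0.241 to 1.03 CPM), which lie beside Hoxa11 and between Hoxc11 and Hoxc12. They were low in Tbx4, a gene of the hindlimb field, at 0.436 to 2.18 against 2.75 to 19.8 CPM. Tbx5, its counterpart in the forelimb, overlapped at 14.8 to 23.9 against 10.2 to 22.7 CPM, as did the kidney precursor gene Pax2 at 6.94 to 13.7 against 4.73 to 12.7 CPM. WT replicate 1, outside these 4, had 3.89 CPM of Hoxa11os and 10.6 CPM of Tbx4, inside the ranges of the other 19. In whole embryos, fewer cells of a type and less RNA per cell cannot be told apart. Kat6aE/E replicates 2 and 3, from 1 litter, had 4.61 and 18.3 CPM of Hoxc10.

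**Figure D3:**
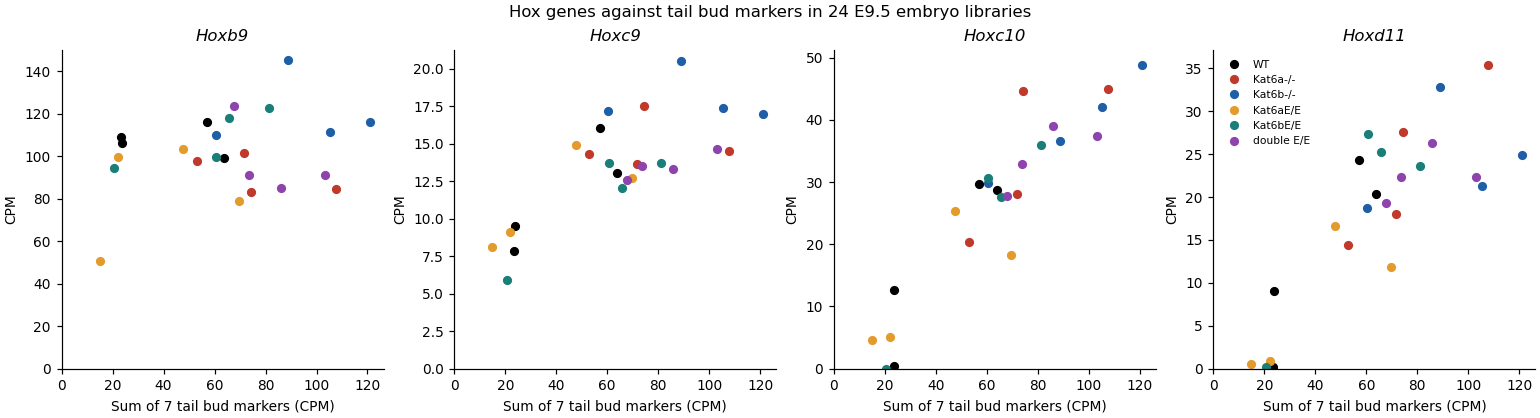
Level of Hoxb9, Hoxc9, Hoxc10 and Hoxd11 against the summed level of the 7 tail bud markers, in CPM, in the 24 embryo libraries. Points are coloured by genotype, and the 5 low libraries lie at 14.9 to 23.7 CPM of the sum. Over the other 19 libraries log2 CPM was also set against the tail bud score (mean log2 of CPM + 0.5 over the 7 markers). Hoxc10 rose with the score (r = 0.81) and Hoxb9 did not (r = -0.01).

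Among the other 19 libraries the members still differed in how they followed the tail bud score. Pearson's r over these 19 libraries was 0.81 for Hoxc10 (Spearman's rho 0.83), 0.54 for Hoxa11, 0.52 for Hoxd11, 0.45 for Hoxd9, 0.42 for Hoxa10, 0.34 for Hoxc9, 0.32 for Hoxa9, 0.19 for Hoxd10, 0.18 for Hoxc11 and -0.01 for Hoxb9. These are descriptions over libraries that share litters and genotypes. Between members, the 45 pairwise correlations of log2 CPM in the same libraries ran from 0.08, for Hoxb9 with Hoxc10, to 0.92, for the neighbours Hoxa10 and Hoxa11, with a median of 0.64, against 0.86 over all 24 libraries.

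The spread between embryos of a genotype was wide with the 5 libraries and narrow without them. The pooled SD of log2 CPM within genotypes was 2.38 for Hoxc10, 2.36 for Hoxc11 and 2.20 for Hoxd11, which ranked 2, 3 and 6 among the 14183 genes tested. It was 1.10 for Hoxa11, 1.07 for Hoxa10, 0.81 for Hoxd10, 0.53 for Hoxa9, 0.42 for Hoxd9, 0.36 for Hoxc9 and 0.25 for Hoxb9, against a median of 0.14 over all genes. Without the 5 libraries the SDs of the members lay between 0.14 for Hoxc9 and 0.54 for Hoxc11.

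Comparisons between genotypes were tested with limma over all genes, with 4 surrogate variables and the litter as a random block, and a gene was called at an FDR under 0.05. All 10 members passed the filter on low counts in embryos. The comparisons with WT share the same 4 WT embryos, of which replicates 1 and 4 are among the 5 low libraries.

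Kat6b-/- against WT was the only comparison of the 14 with a called member. In Kat6b-/- embryos 1 of 10 members was called, against 0.508% of all genes, and it was Hoxc9. Hoxc9 was higher than in WT by 0.53 ± 0.12 on the log2 scale (SE, 95% interval 0.28 to 0.79, FDR = 0.0461). Hoxa9 was at 0.62 ± 0.17 (FDR = 0.104), the second member with an unadjusted p under 0.05. All 10 estimates were above 0, from 0.05 for Hoxb9 to 0.84 for Hoxc11, with a median of 0.59 against 0.00 over all genes. Without the 5 libraries none was called, Hoxc9 was at 0.29 ± 0.14 (FDR = 0.609), 5 of 10 estimates were above 0 and the median was -0.01. The call was also lost when any one of WT replicates 1 to 4 (FDR = 0.0799 to 0.265) or of Kat6b-/- replicates 2 to 4 (FDR = 0.0838 to 0.125) was left out, and kept without Kat6b-/- replicate 1 (FDR = 0.0457). Neither edgeR nor DESeq2 called Hoxc9. The summed tail bud level was 60.4 to 121 CPM in the Kat6b-/- and 23.4 to 63.9 CPM in the WT embryos. With the tail bud score as covariate in place of the surrogate variables, Hoxc9 was at 0.20 ± 0.13 (FDR = 0.697). That fit was chosen after the data were seen, and whether the tail bud level caused the result was not tested.

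No member was called in Kat6a-/- embryos, where 2.64% of all genes were. Estimates ran from -0.20 for Hoxb9 to 0.27 for Hoxa9, with a median of 0.17, and the smallest FDR was 0.458. Without the 5 libraries they ran from -0.52 for Hoxd10 to 0.03 for Hoxa9, with a median of -0.21, so that 2 in place of 7 were above 0. The unadjusted p was not under 0.05 for any member, and edgeR and DESeq2 likewise called none. Genes of the first groups did change in these embryos. In groups 1 to 3 they included Hoxa2 (-0.50 ± 0.10, FDR = 0.00952), which patterns the second branchial arch and fell, and Hoxd1 (0.67 ± 0.17, FDR = 0.0336), which rose. No gene of groups 4 to 8 was called, nor any of the 5 tested genes of groups 12 and 13.

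In Kat6aE/E embryos most estimates were below 0, without a call. Of all genes 0.275% were called, and none of the 10 members. Hoxd9 was at -0.47 ± 0.15 (FDR = 0.249) and Hoxb9 at -0.33 ± 0.15 (FDR = 0.494), the 2 members with an unadjusted p under 0.05. The median of the members was -0.40, and 9 estimates were below 0. Without the 5 libraries the comparison rested on 2 Kat6aE/E and 2 WT embryos, all 10 estimates were below 0 with a median of -0.65, and the smallest FDR was 0.854. When only Kat6aE/E replicate 1 was left out, the embryo of that genotype highest in all 6 genes of groups 10 and 11, Hoxd10 (-1.24 ± 0.26, FDR = 0.0383) and Hoxd9 (-0.76 ± 0.16, FDR = 0.0419) were called lower. The lowest estimates without the 5 libraries were Hoxa10 at -0.86 ± 0.41, Hoxc11 at -0.84 ± 0.49 and Hoxd10 at -0.77 ± 0.36.

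In Kat6bE/E embryos 0% of genes were called, with 626 of 14183 at an unadjusted p under 0.05, and no member was called by limma, edgeR or DESeq2. Member estimates lay between -0.38 for Hoxd10 and 0.03 for Hoxb9 with a median of -0.15, and between -0.47 and 0.12 without the 5 libraries. None had an unadjusted p under 0.05. For Hoxc9 the 95% interval was -0.39 to 0.15 with all libraries and -0.42 to 0.14 without the 5, while for Hoxc11 it was -1.62 to 1.09.

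Double mutant embryos had the most called genes of all comparisons, 2.91%, with no posterior Hox gene among them. The members ran from -0.31 for Hoxb9 to 1.03 for Hoxc11, with 8 of 10 above 0, a median of 0.37 and a smallest FDR of 0.329. Without the 5 libraries they ran from -0.36 for Hoxd9 to 0.07 for Hoxc10, with 1 of 10 above 0 and a median of -0.21. The sign of the median thus turned when the 5 libraries were left out, as it did for Kat6a-/-, and none of the 5 was a mutant of these genotypes. Among the other Hox genes Hoxa2 (-0.41 ± 0.10, FDR = 0.0318) and Hoxb5 (-0.39 ± 0.10, FDR = 0.0298) fell. The Polycomb gene Bmi1, whose product keeps Hox genes silent, was higher in double mutants (0.33 ± 0.06, FDR = 0.00498) and in Kat6aE/E embryos (0.30 ± 0.06, FDR = 0.0182), and no other Polycomb gene of the 20 listed was called in these comparisons.

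**Figure D4:**
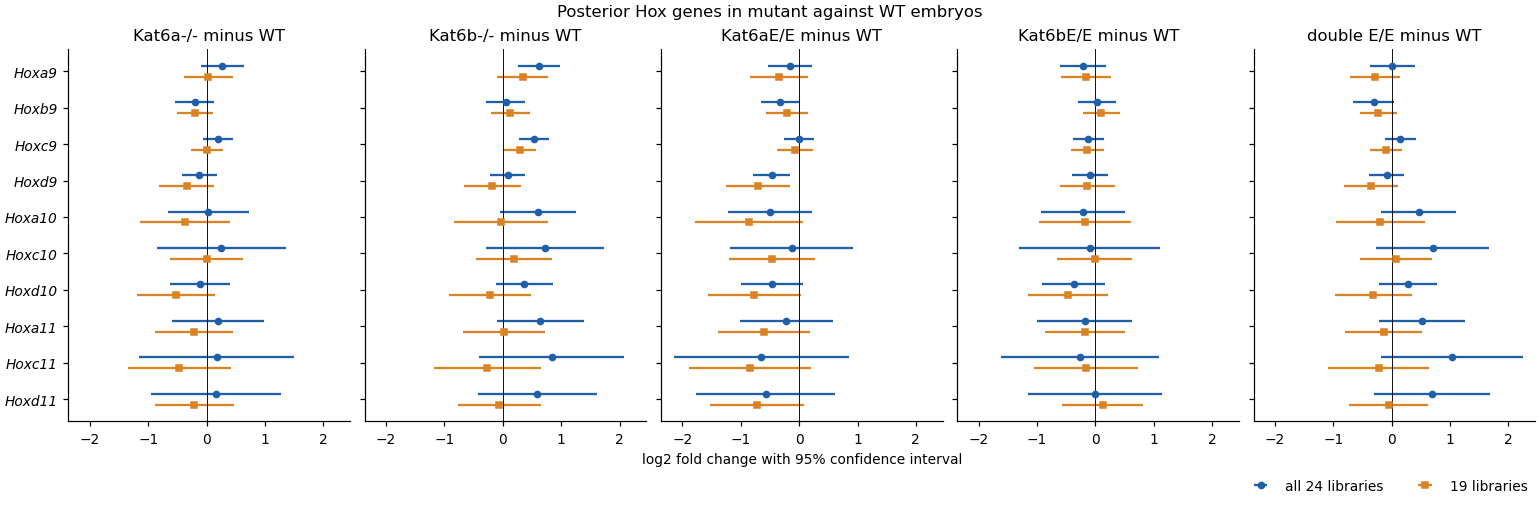
Log2 fold change of each member against WT in the 5 embryo comparisons, with 95% intervals, for all 24 libraries and for the 19 without the 5 low in tail bud genes. In double mutants the estimates of groups 10 and 11 moved most between the settings, that of Hoxc11 from 1.03 to -0.22, and that of Hoxb9 least.

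The point mutants were also set against the nulls of the same gene. Kat6bE/E against Kat6b-/- gave the lowest median of the members among the 8 embryo comparisons, -0.78 with all 10 estimates below 0, but 0.0353% of genes and no member were called. By limma Hoxc9 was at -0.65 ± 0.13 (FDR = 0.0507), and it was called with a replicate block (FDR = 0.0212), without the litter block (FDR = 0.0401), with 6 surrogate variables (FDR = 0.0267), by edgeR with 4 surrogate variables (FDR = 0.0286) and with all gene types (FDR = 0.0152). It was not called with no (FDR = 0.986) or 2 surrogate variables (FDR = 0.256), nor without the filter on low counts (FDR = 0.146). Nor was it called by edgeR without surrogate variables (FDR = 0.748), by DESeq2 (FDR = 0.536) or with only the 8 libraries compared (FDR = 0.711). Leaving out any one of the 8 libraries gave an FDR of 0.0611 to 0.271. Hoxa9 was at -0.83 ± 0.18 (FDR = 0.0987), and Hoxd10, Hoxa10 and Hoxa11 at -0.74, -0.81 and -0.83, all with an unadjusted p under 0.05. With the tail bud score as covariate in place of the surrogate variables, an alternative chosen after the data were seen, the last 3 turned to 0.013, 0.071 and 0.082. Without the 5 libraries, of which Kat6bE/E replicate 3 is 1, the median was -0.17 and Hoxc9 was at -0.42 ± 0.12 (FDR = 0.116). Hoxc9 levels of the remaining 3 Kat6bE/E embryos, 12.1 to 13.7 CPM, still lay under the 17.0 CPM of the lowest Kat6b-/- embryo. Between Kat6aE/E and Kat6a-/-, 1.60% of genes and no member were called, all 10 estimates were below 0, and Hoxa9 (-0.43 ± 0.18, FDR = 0.249) and Hoxd9 (-0.35 ± 0.16, FDR = 0.290) had an unadjusted p under 0.05. The median was -0.40, and -0.37 without the 5 libraries. Between double mutants and Kat6a-/- embryos, neither of which includes a low library, 0.00705% of genes and no member were called, and the median of 0.36 depended on the fit. It was 0.08 without the 5 libraries, -0.02 by edgeR without surrogate variables and -0.04 by DESeq2, and the levels were close, with median Hoxc10 of 35.1 CPM in double mutants and 36.4 CPM in Kat6a-/- and median Hoxa10 of 18.3 and 18.9 CPM. The 4 surrogate variables carried much of the tail bud score over the 24 libraries (r squared = 0.771).

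Litters that held 2 genotypes gave single pairs, with no test. In the litter of WT replicate 3 and Kat6b-/- replicate 2, Hoxc9 was 13.03 and 17.4 CPM, Hoxa9 8.12 and 11.02 CPM and Hoxc10 28.8 and 42.1 CPM. Hoxa10 (21.4 and 20.1 CPM) and Hoxd11 (20.4 and 21.2 CPM) were close in the same pair. WT replicate 2 and Kat6aE/E replicate 1 had 16.04 and 14.9 CPM of Hoxc9 and 24.3 and 16.6 CPM of Hoxd11. WT replicate 1, low in tail bud genes, and its litter mate Kat6a-/- replicate 2 had 9.51 and 14.3 CPM of Hoxc9 and 12.6 and 20.4 CPM of Hoxc10.

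Genes known to act with or on the members were listed as well. Of the 9 Hox cofactor genes of the PBX, MEIS and PKNOX families none was called in any comparison of mutant embryos with WT. Of 18 tail bud and axial progenitor genes, the signalling gene Wnt5a rose in Kat6b-/- (0.40 ± 0.07, FDR = 0.00474) and the segmentation gene Lfng fell in Kat6a-/- embryos (-0.30 ± 0.06, FDR = 0.00745), and the median of the list was 0.54 in Kat6b-/-, 0.32 in Kat6a-/-, 0.42 in double mutant, -0.06 in Kat6aE/E and 0.08 in Kat6bE/E embryos. The sign of the members' median was the same as that of the list in each of these but Kat6bE/E. Tbx5 (-0.44 ± 0.11, FDR = 0.0263) was the called gene of 10 limb bud genes, and Six2 (-0.60 ± 0.10, FDR = 0.00183) and Pax2 (-0.80 ± 0.17, FDR = 0.0128) those of 10 mesonephros genes, all lower in Kat6a-/- embryos. Of 16 genes of the MLL and menin complexes, which sustain Hox expression, Mllt1 fell in double mutants (-0.21 ± 0.04, FDR = 0.0100).

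The genes outside the Hox clusters whose log2 CPM was most like the mean of the members over the 24 embryo libraries were Tbx4 (r = 0.97), Evx1 (r = 0.95), which lies next to Hoxa13, Peli3 (r = 0.94), Tbx6 (r = 0.92) and Rarg (r = 0.92). These values span the gap between the 5 libraries and the rest. Over the other 19 libraries, a choice made after the data were seen, they were Tbx4 (r = 0.93), Evx2 (r = 0.87), which lies next to Hoxd13, Cer1 (r = 0.85), Capn6 (r = 0.81) and Tcf15 (r = 0.80).

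In LSK cells 2 members were expressed. Hoxa9 had 5837 and Hoxa10 1899 counts over the 16 libraries, Hoxb9 had 42, Hoxc9 and Hoxc10 had 1 each, and Hoxd9, Hoxd10, Hoxa11, Hoxc11 and Hoxd11 had none. A count of 0 allows 0.0523 to 0.256 CPM in an LSK library. The cells expressed Kit at 351 to 552 CPM, Cd34 at 349 to 844 CPM and Flt3 at 117 to 322 CPM, while Ly6a, which codes for SCA-1, was low at 0.937 to 10.3 CPM and the T cell gene Cd3e was at 0. Per kilobase, WT cells had 9.12 ± 3.19 CPM of Hoxa9 and 2.27 ± 0.93 CPM of Hoxa10 (SD, n = 4), and these ranges did not overlap.

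Hoxa9 was 27.6, 22.9, 19.7 and 10.8 CPM in WT LSK cells, 14.9, 10.996, 11.5 and 19.4 CPM in Kat6bE/E, 18.4, 10.2, 21.0 and 17.5 CPM in Kat6aE/E, and 15.9, 12.3, 3.66 and 10.3 CPM in Kat6aE/E;Kat6bE/E cells. WT replicates 1 to 3 and Kat6aE/E replicate 1 came from 1 litter, in which the Kat6aE/E sample lay below the 3 WT samples for Hoxa9 and, at 5.03 CPM, for Hoxa10, a comparison with no test. Every genotype overlapped WT. Hoxa10 was 9.13, 8.16, 6.89 and 2.84 CPM in WT and 5.50, 0, 1.96 and 3.07 CPM in double mutant cells, again overlapping. The single 0 of Hoxa10, in double mutant replicate 2, allows up to 0.189 CPM, although Hoxa9 was at 12.3 CPM in that library.

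**Figure D5:**
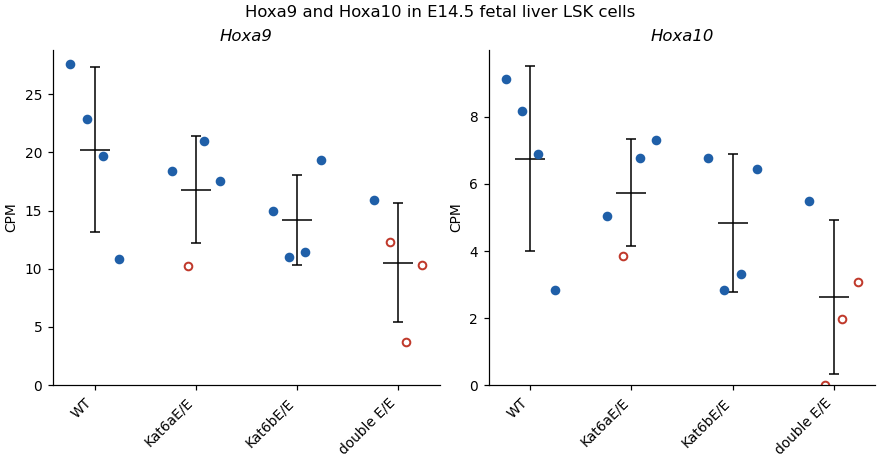
Hoxa9 and Hoxa10 in the 16 LSK libraries by genotype, in CPM, with bars for the mean ± SD (n = 4) and open red points for the 4 libraries in which few genes were detected. The open points lie at 3.66 to 12.3 CPM for Hoxa9 and at 0 to 3.85 CPM for Hoxa10, in the lower part of both plots.

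Of the LSK libraries 4 stood apart by the number of genes detected, 12600 to 13683 against 16082 to 17647. They were Kat6aE/E replicate 2 and double mutant replicates 2 to 4, which came from 1 litter. Hoxa9 was 3.66 to 12.3 CPM in them and 10.8 to 27.6 CPM in the other 12. The globin gene Hba-a1, a marker of erythroid cells added after its values were seen, was 1937 to 4724 against 123 to 1628 CPM. The sum of the 3 fixed erythroid markers (Hbb-y, Hbb-bh1 and Hba-x) overlapped at 7.75 to 51.4 against 0.552 to 12.2 CPM. Overlap was also seen for 6 genes of lineages that the gate removes, at 142 to 258 against 72.4 to 168 CPM. The sum of 6 LSK genes was 922 to 1175 against 984 to 1883 CPM. The summed level of 3 liver genes (Alb, Afp and Apoa1) overlapped at 34.1 to 218 against 32.4 to 163 CPM. Their part in the Hox levels was not tested. With 3 of the 4 double mutant libraries among them, genotype, litter and this difference cannot be told apart there.

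Neither gene was called in any LSK comparison. Against WT, Hoxa9 was at -0.04 ± 0.16 in Kat6aE/E (FDR = 0.962), where 1.36% of 13071 genes were called, at -0.02 ± 0.21 in Kat6bE/E, where 0% were called and 364 genes had an unadjusted p under 0.05, and at -0.16 ± 0.26 in double mutant cells, where 0% were called and 896 had an unadjusted p under 0.05. Hoxa10 was at -0.03 ± 0.30, 0.25 ± 0.36 and -0.24 ± 0.47. For Hoxa9 the 95% intervals were -0.39 to 0.31, -0.48 to 0.44 and -0.72 to 0.39, so that changes within them were not excluded. Without the 4 libraries Hoxa9 was at -0.11 ± 0.12 in Kat6aE/E, -0.04 ± 0.13 in Kat6bE/E and -0.24 ± 0.19 in the 1 remaining double mutant sample, whose spread was taken from the other groups, with no call. When double mutant replicate 1 was left out, the 1 library of that genotype that did not stand apart, Hoxa10 was called lower (-1.38 ± 0.44, FDR = 0.0410). In that fit 2170 genes were called, against 0 with all libraries. The double mutant samples left in it all stood apart and came from 1 litter. By edgeR without surrogate variables 39 and by DESeq2 262 genes were called in double mutant cells, and neither Hoxa9 nor Hoxa10 was among them. Both had an unadjusted p under 0.05 by DESeq2, which had no surrogate variables. Mean levels, without any adjustment for surrogate variables, were 10.5 CPM of Hoxa9 in double mutant against 20.2 CPM in WT cells. For Hoxa10 they were 2.63 against 6.76 CPM.

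Few other Hox and stem cell genes were called in Kat6aE/E cells. Of 10 other Hox genes tested 1 was called, Hoxb4, which promotes expansion of hematopoietic stem cells and rose (0.81 ± 0.19, FDR = 0.0398). Of 20 Polycomb genes and 15 stem cell transcription factors 1 each was called. The Polycomb gene Pcgf2 (-0.68 ± 0.15, FDR = 0.0300) and Gata2 (-0.57 ± 0.08, FDR = 0.00353), a regulator of blood stem cells, fell. Over the 12 libraries that did not stand apart, Hoxa9 and Hoxa10 rose and fell together (r = 0.92, rho = 0.81, against r = 0.38 and rho = 0.82 over all 16). In the same 12, Hoxa9 went with Meis1, the cofactor of HOXA9 (r = 0.86, rho = 0.79), and Flt3 (r = 0.87, rho = 0.57). It also went with Cd34 (r = 0.86, rho = 0.68) and the stem cell gene Hlf (r = 0.85, rho = 0.83). Over all 16, r was 0.57 for Meis1, 0.72 for Flt3, 0.72 for Cd34 and 0.63 for Hlf. In the same order rho was 0.84, 0.69, 0.72 and 0.79. All are descriptions over libraries that share litters and genotypes. The genes most like Hoxa9 over all 16 LSK libraries were Cenpj, Phf14, Git1, Sla2 and Exoc3l2 (r = 0.936 to 0.945), and over the 12, a choice made after the data were seen, they were Por, Tmem98, Egfl7, Gimap1 and Rgl1 (r = 0.965 to 0.970).

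Whether a mutation acted differently on the members in LSK cells and in embryos was tested by an interaction term over 32 libraries of WT and the 3 point mutant genotypes, without surrogate variables. No member was called, against 0.0265% of 15073 genes for Kat6aE/E, 0% for Kat6bE/E, where 179 genes had an unadjusted p under 0.05, and 0.0332% for the double mutant. For Hoxa9 the difference of the log2 fold changes, LSK minus embryo, was 0.17 ± 0.66 for Kat6aE/E, -0.23 ± 0.73 for Kat6bE/E and -1.03 ± 0.69 for the double mutant, and 0.32, -0.04 and -0.01 without the 9 libraries that stood apart. For Hoxa10 the double mutant value was -3.23 ± 1.60 (FDR = 0.618) with all libraries and -0.05 ± 0.80 without the 9 libraries that stood apart, where 1 double mutant LSK sample remained and was assumed to vary like the other groups. The members that LSK cells do not express could enter this fit through their embryo counts, and their values there are not given.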

How the data were processed

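The authors sequenced poly(A)-selected, unstranded libraries in paired ends, aligned them to the mouse genome (mm39) with Rsubread and assigned read pairs to RefSeq genes with featureCounts. The deposited values were raw counts per gene, 26411 genes in each of 40 libraries. The labels and the methods of the study differ on read length and instrument, and 66 bases, from the methods, was used for the count of shared windows.

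The counts were analysed as deposited, after the model that the study's methods give. Protein-coding genes (21030 of the 26359 that matched the RefSeq gene table, with 52 unmatched) without the 93 Y-linked genes were filtered with filterByExpr, scaled by TMM and fitted in R 4.3.3 with voomLmFit (edgeR 4.0.16, limma 3.58.1), with 4 surrogate variables, litter as random block and robust empirical Bayes. Embryos and LSK cells were fitted separately. FDRs are Benjamini-Hochberg values over all genes tested, and 0.05 was the threshold. The interaction over both tissues had no surrogate variables. Each p-value measures the spread between single embryos or fetal livers, some of which were litter mates.

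CPM used TMM-scaled library totals, and log2 CPM a prior count of 0.5. The tail bud score was the mean of log2(CPM + 0.5) over 7 markers. A count of 0 was given a limit of 3 counts, which covers counting error only. Alternatives were other numbers of surrogate variables, no litter block, a replicate block, edgeR's quasi-likelihood test, DESeq2 1.42.0, other scaling, no filter, all gene types, the groups compared alone and the omission of each library. The fitting scripts were tested on simulated data.

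The members and gene lists were chosen with earlier results of these data known. Genes named were the 10 members, Kat6a and Kat6b, up to 3 called genes with the smallest p per list and comparison, the 5 genes most like the members in embryos and most like Hoxa9 in LSK cells, and fixed marker genes. Hoxa11os, Hotair, Hba-a1, Meis1 and Hlf were added after their values were seen. Gene coordinates are from mm39, and promoters and miRNAs from RefSeq (GRCm38.p6). Some homeobox sequences and some genes of the fixed lists are not reported here.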

Additional observations from a re-analysis of the deposited data

Results flagged for a closer look

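In groups of 4 samples, a value was looked at again when its gap to the nearest other sample was a larger share of the range of its group than Dixon's 95% limit for 4 samples. This was met in 5 of 68 groups of member values examined, and chance gives about 1 in 20. Kat6bE/E replicate 3, low in tail bud genes, was the lowest of its genotype for every member, and it met the limit for 3 genes of 1 cluster. It had 12.3 CPM of Hoxd9 against 23.96 to 25.9 CPM, 2.76 CPM of Hoxd10 against 9.33 to 10.3 CPM and 0.145 CPM of Hoxd11 against 23.6 to 27.3 CPM in the other 3 embryos. Kat6b-/- replicate 1 was the highest of its genotype for Hoxc9, at 20.5 CPM against 17.0 to 17.4 CPM. Double mutant replicate 2 was the highest for Hoxb9, at 124 CPM against 85.1 to 91.1 CPM. These values were kept in all fits unless stated otherwise.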

How the results depend on the processing

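Of 322 counts of called members under an alternative, 296 kept the count and 26 moved, in 4 of the 14 comparisons, and the causes were not tested. For Kat6b-/- against WT the count was 1. It fell to 0 with no or 2 surrogate variables, no litter block, edgeR with or without 4 surrogate variables, DESeq2, no filter on low counts or only the 8 libraries compared. It was also 0 under 3 alternatives chosen after seeing the data, which were the omission of the 5 or the 4 libraries low in tail bud genes and the tail bud score as covariate in place of the surrogate variables. Leaving out single libraries gave 0 to 1. For Kat6aE/E against WT the count of 0 became 1 with 6 surrogate variables (Hoxd9, FDR = 0.0478) and 0 to 2 without single libraries. For Kat6bE/E against Kat6b-/- it became 1 with 6 surrogate variables, no litter block or edgeR with 4 surrogate variables, Hoxc9 each time, and 2 with all gene types. In LSK double mutants it was 0 to 1 without single libraries, the 1 being Hoxa10 in a fit that called 2170 genes.

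Replicate numbers are shared between genotypes, but the correlation of deviations between libraries of 1 number ran from -0.38 to 0.29 and in 0 of 11 comparisons exceeded 0.1 for every pair. With the number as a replicate block, 1 member (Hoxc9, FDR = 0.0212) was called in Kat6bE/E against Kat6b-/- and 1 (Hoxc9, FDR = 0.0253) in Kat6b-/- against WT, and 0 in the other 12 comparisons.

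Log2 fold changes changed sign in 26 of 835 cases. With the tail bud covariate, Kat6bE/E against Kat6b-/- gave 0.013 for Hoxd10, 0.071 for Hoxa10 and 0.082 for Hoxa11. In Kat6aE/E LSK cells Hoxa9 was 0.037 with no and 0.018 with 2 surrogate variables, and -0.26 to 0.084 without single libraries. Hoxa10 was 0.22 with no and 0.027 with 2 surrogate variables, 0.022 without the litter block, 0.041 without the filter, 0.17 with the 8 libraries compared, and -0.35 to 0.27 without single libraries. In Kat6bE/E LSK cells Hoxa9 was -0.39 to 0.049 without single libraries. Hoxa10 was -0.066 with no surrogate variables, -0.47 by edgeR without them, -0.49 by DESeq2, -0.20 with the 8 libraries and -0.27 to 0.32 without single libraries. With the longest annotated transcript as length, Hoxc9 in WT embryos was 4.42 in place of 6.76 CPM per kilobase, and the levels of the other members and of LSK cells moved by less than 1 SD.

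With 4 samples a genotype and the spread given for groups 10 and 11, intervals of log2 fold changes were wide, and changes within them were not excluded. In LSK cells counts limit Hoxa10, which had 1899 reads over 16 libraries.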
